A study of Mus musculus with 60 samples.

Results

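The comparison described here set 5 cKOt mice against 5 control mice whose kidneys were taken at ZT0, the hour at which the lights came on, out of 60 mice collected at 6 times of day. The members were every sample whose label gave ZT0, and none was chosen by its values. cKOt mice carried Bmal1 lox/lox together with Pax8-rtTA and LC1, a pair of transgenes through which doxycycline switches on Cre recombinase in cells of the renal tubule, so that these cells lose a part of Bmal1, the gene listed as Arntl. Control mice were Bmal1 lox/lox littermates, and both groups were males of C57BL/6J background that drank doxycycline at 2 mg/ml with 20 mg/ml sucrose for 2 weeks from 8 weeks of age, ate chow freely and lived under 12 h of light and 12 h of dark until collection about 4 weeks after the treatment. The controls lacked the transgenes, so recombination and the presence of the transgenes cannot be told apart. The labels name renal tubule as the tissue, whereas the study's methods describe frozen pieces of whole kidney, in which glomerular, vascular and stromal cells keep Bmal1. The 5 mice of each group were kept from 6 by the authors on RNA quality and on the distance between libraries, and at ZT0 the cKOt mouse set aside was one that had grouped with the controls, so the spread among the cKOt mice is that of a selected set.

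BMAL1 pairs with CLOCK or NPAS2 and switches on genes through the E-box, a short motif in their promoters. Among these genes are their own repressors, the PER and CRY proteins, and the nuclear receptors REV-ERBα and REV-ERBβ, encoded by Nr1d1 and Nr1d2. The REV-ERBs repress, and the RORs activate, genes that carry the ROR element, Arntl and Npas2 among them. A further layer acts at the D-box, where DBP, TEF and HLF activate and NFIL3 represses. In the kidney this clock is known for daily rhythms of filtration, of salt and water excretion and of the handling of nutrients and drugs, and the proximal tubule, which burns fatty acids, holds much of the organ's mass.

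The 250 bases before the annotated start of 5 clock genes are shown, chosen among those that hold the motifs just named in that window. Per1 and Bhlhe41, which also hold an E-box there, are not shown. At ZT0 Cry1 rose, Per3 fell and the other 3 genes shown were not called, with the values given further on. The sequences are from RefSeq, build GRCm38.p6, written 5′ to 3′ on the strand of the gene, with every match in capitals: the E-box CACGTG, the D-box TTATGTAA or TTACGTAA, and the ROR element TAGGTCA, each searched on both strands. Ciart, which encodes a repressor of the clock, lies at chr3:95882229-95882478 on the minus strand and Cry1 at chr10:85185055-85185304 on the minus strand. Tef lies at chr15:81802423-81802672 on the plus strand, Per3 at chr4:151044666-151044915 on the minus strand and Nfil3 at chr13:52981040-52981289 on the minus strand, where the ROR element reads in the reverse direction.
Ciart: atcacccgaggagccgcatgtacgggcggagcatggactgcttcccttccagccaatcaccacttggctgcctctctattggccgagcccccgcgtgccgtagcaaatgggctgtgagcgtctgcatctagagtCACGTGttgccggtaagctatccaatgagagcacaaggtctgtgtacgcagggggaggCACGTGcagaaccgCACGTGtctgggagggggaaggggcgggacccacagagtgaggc
Cry1: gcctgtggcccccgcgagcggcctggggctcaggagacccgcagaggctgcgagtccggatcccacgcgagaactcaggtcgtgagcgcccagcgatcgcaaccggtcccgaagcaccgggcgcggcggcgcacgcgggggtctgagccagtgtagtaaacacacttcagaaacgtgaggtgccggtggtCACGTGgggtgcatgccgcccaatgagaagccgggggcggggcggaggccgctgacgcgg
Tef: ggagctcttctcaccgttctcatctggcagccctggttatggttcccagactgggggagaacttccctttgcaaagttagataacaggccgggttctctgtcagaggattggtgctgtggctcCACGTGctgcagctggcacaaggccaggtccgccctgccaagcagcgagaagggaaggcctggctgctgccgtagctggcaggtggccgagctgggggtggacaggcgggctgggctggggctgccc
Per3: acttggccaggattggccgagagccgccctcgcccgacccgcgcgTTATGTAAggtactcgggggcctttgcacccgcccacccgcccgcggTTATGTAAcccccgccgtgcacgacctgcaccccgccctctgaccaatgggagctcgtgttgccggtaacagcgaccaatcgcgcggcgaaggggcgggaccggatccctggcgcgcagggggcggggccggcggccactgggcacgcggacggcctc
Nfil3: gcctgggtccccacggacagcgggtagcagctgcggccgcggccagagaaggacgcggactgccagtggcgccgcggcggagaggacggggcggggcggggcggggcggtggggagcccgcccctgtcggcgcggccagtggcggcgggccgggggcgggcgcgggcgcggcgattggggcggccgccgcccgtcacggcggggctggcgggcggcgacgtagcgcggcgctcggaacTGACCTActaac
Of the 21 clock genes searched, 18 matched a RefSeq promoter, with 24 windows among them. An E-box stood in windows of 5 genes, a D-box in those of 1 gene, Per3, and a ROR element in those of 1 gene, Nfil3. Over all 32851 promoter windows, 6.02% held the E-box, 0.931% the D-box and 2.23% the ROR element. Counted by gene, as for the clock genes, the shares were 9.57%, 0.815% and 2.06% of 11416 tested genes with a promoter. A match describes these letters only, and a window without one says nothing of the factor.

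**Figure D1:**
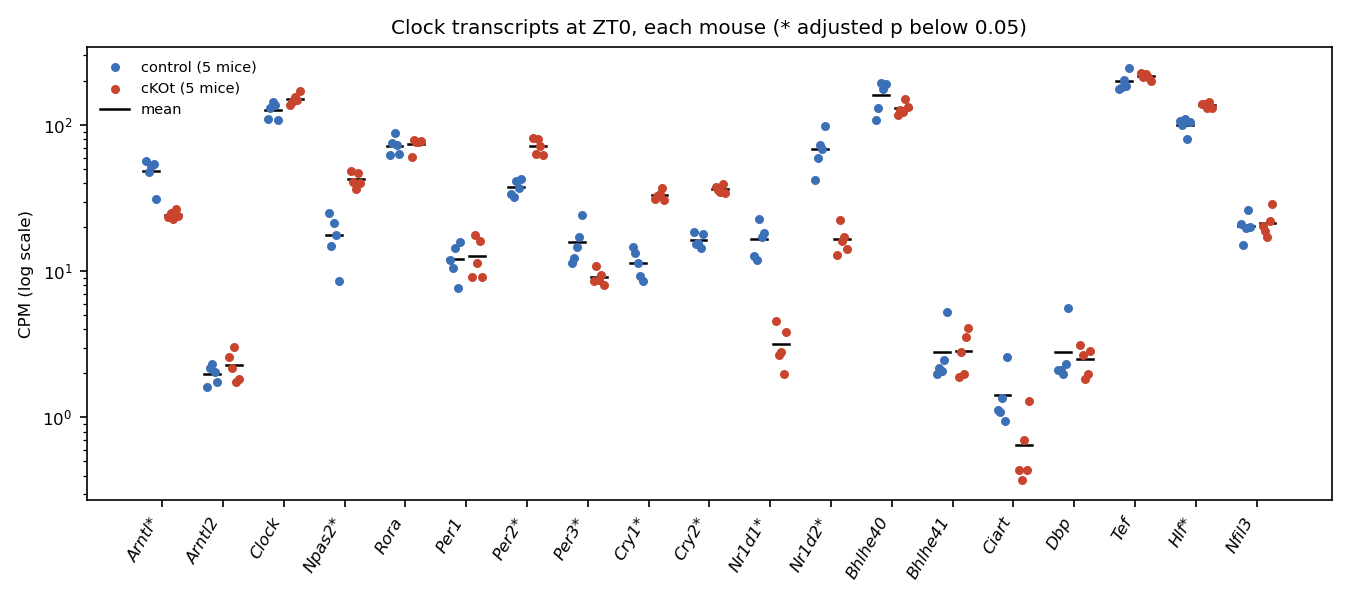
Clock transcripts at ZT0 in CPM (log axis), 1 point per mouse, with the group mean as a bar and an asterisk on genes with an adjusted p below 0.05. The groups do not overlap for Cry1, Cry2, Nr1d1 and Nr1d2, and they overlap for Clock, Per1, Dbp, Tef and Nfil3.

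The targeted gene was examined first. Arntl, on chromosome 7 and encoding BMAL1, stood at 57.1, 47.6, 52.3, 53.8 and 31.3 CPM in control mice 1 to 5 (CPM, reads relative to the TMM-normalised size of each library) and at 23.5, 25.2, 22.8, 26.8 and 23.9 CPM in cKOt mice 1 to 5. The groups did not overlap, and control mouse 5 was the lowest of its group. The log2 difference, cKOt minus control, was -0.99 ± 0.19 (SE, 5 mice against 5), with adjusted p = 1.41e-04. Values in brackets below are such log2 differences ± SE, and means of CPM are given ± SD. Fold changes and adjusted p-values here and throughout come from the quasi-likelihood test of edgeR, adjusted by Benjamini-Hochberg over all 15546 genes tested, and a gene is said to have risen or fallen, or to have been called, when its adjusted p was below 0.05. Over all genes tested 12.1% were called, 6.63% as higher in cKOt mice and 5.49% as lower. The counts span the whole of Arntl, so transcripts that lack the deleted part still enter them, as do those of cells outside the tubule.

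The partners and activators of the clock did not move as one: Npas2 rose, Arntl fell, and Clock, Arntl2 and Rora were not called, while Rorb did not reach the count minimum. Npas2, the partner that can stand in for CLOCK, was at 25.2, 14.9, 21.4, 17.7 and 8.63 CPM in the control mice and at 48.6, 40.9, 36.3, 46.7 and 40.2 CPM in the cKOt mice. The groups did not overlap, and the log2 difference was 1.26 ± 0.20 (adjusted p = 3.24e-06). Clock, the partner of BMAL1, was at 126 ± 16.8 CPM (mean ± SD, n = 5) in controls and 151 ± 13.2 CPM in cKOt mice, with overlapping groups and a log2 difference of 0.26 ± 0.09 (adjusted p = 0.0547). Rora, an activating nuclear receptor, gave 0.04 ± 0.11 and Arntl2, a paralog of Arntl, gave 0.21 ± 0.17, with adjusted p = 0.878 and 0.466.

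Among the 10 repressors, 3 rose, 3 fell and 4 were not called. Nr1d1, encoding REV-ERBα, was at 12.8, 11.9, 22.9, 17.3 and 18.3 CPM in the control mice and at 4.56, 2.67, 2.79, 1.99 and 3.83 CPM in the cKOt mice. Nr1d2, encoding REV-ERBβ, was at 42.4, 59.2, 72.8, 68.4 and 98.5 CPM in the control mice and at 12.9, 22.4, 16.2, 17.0 and 14.2 CPM in the cKOt mice. Both receptors were lower in every cKOt mouse than in any control, with log2 differences of -2.39 ± 0.26 (adjusted p = 6.36e-10) and -2.02 ± 0.15 (adjusted p = 5.72e-16). The third gene to fall was Per3, a period gene whose promoter window holds the D-boxes shown above. It stood at 11.4, 12.4, 14.7, 17.2 and 24.2 CPM in the control mice and 8.63, 10.9, 8.73, 9.41 and 8.04 CPM in the cKOt mice, a log2 difference of -0.79 ± 0.17 (adjusted p = 5.03e-04).

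Both cryptochromes, which encode the repressors that hold BMAL1 in check, rose. Cry1, with 1 E-box in its window 60 bases before the start, was at 14.5, 13.3, 11.4, 9.34 and 8.52 CPM in the control mice and at 31.3, 32.7, 34.0, 37.1 and 30.8 CPM in the cKOt mice, a log2 difference of 1.54 ± 0.11 (adjusted p = 4.30e-17). Cry2 was at 18.6, 15.3, 15.5, 14.4 and 18.1 CPM in the control mice and at 37.6, 35.9, 34.6, 39.6 and 34.4 CPM in the cKOt mice, a log2 difference of 1.14 ± 0.07 (adjusted p = 7.40e-20). For both, the highest control lay well under the lowest cKOt mouse. Per2, the period gene that rose, was at 33.9, 32.3, 41.6, 37.4 and 43.1 CPM in the control mice and at 81.3, 63.2, 80.0, 71.7 and 62.0 CPM in the cKOt mice (0.91 ± 0.16, adjusted p = 2.03e-05). The period genes therefore split at this hour, with Per2 higher, Per3 lower and Per1 at 12.1 ± 3.19 CPM in controls and 12.7 ± 4.01 CPM in cKOt mice (0.06 ± 0.23, adjusted p = 0.913). Ciart, with 3 E-boxes in its window, was at 1.13, 1.09, 1.35, 0.939 and 2.61 CPM in the control mice and at 0.434, 0.374, 0.697, 0.437 and 1.30 CPM in the cKOt mice, which overlapped (-1.10 ± 0.44, adjusted p = 0.0914). Bhlhe40 and Bhlhe41, encoding repressors that bind the E-box, gave -0.29 ± 0.15 and 0.09 ± 0.24 (adjusted p = 0.211 and 0.871).

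Of the D-box factors, 1 of 4 was called. Hlf was at 106, 101, 111, 80.2 and 105 CPM in the control mice and at 139, 139, 131, 145 and 132 CPM in the cKOt mice, which did not overlap (0.44 ± 0.08, adjusted p = 2.40e-05). Dbp, which in many tissues has one of the widest daily swings, was at 2.10, 2.12, 1.97, 2.32 and 5.56 CPM in the control mice and at 3.15, 2.67, 1.82, 1.99 and 2.86 CPM in the cKOt mice. Only control mouse 5 stood apart, and the log2 difference was -0.15 ± 0.28 (adjusted p = 0.795). Tef, with 1 E-box in the window shown, was at 199 ± 29.0 CPM in controls and 216 ± 11.1 CPM in cKOt mice (0.11 ± 0.09, adjusted p = 0.484). Nfil3, the repressor at the D-box, was at 20.4 ± 4.05 CPM and 21.5 ± 4.54 CPM (0.03 ± 0.28, adjusted p = 0.965). The other 3 genes thus gave no call at ZT0, and each of them gave one when ZT0 was set against the rest of the day, as described at the end.

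Within the control group, mouse 5 had the lowest Arntl and Npas2 of the 5 and the highest Per3, Nr1d2, Dbp, Ciart and Bhlhe41. Without this mouse Arntl gave a log2 difference of -1.11, and no call among the clock genes was lost. Of the genes that modify the clock proteins, 3 of 14 tested rose and none fell. These were Csnk1d, a kinase that marks PER proteins (111 to 128 CPM, 0.19 ± 0.03, adjusted p = 8.22e-05), Btrc, part of the ligase that removes them (25.7 to 31.9 CPM, 0.31 ± 0.07, adjusted p = 0.00105), and Fbxl21, part of a ligase for the cryptochromes (4.60 to 6.13 CPM, 0.42 ± 0.15, adjusted p = 0.0467). The call of Fbxl21 was lost without control mouse 1, 2 or 4 or cKOt mouse 2, 3 or 4 (0.30 to 0.43). Prkaa2, a catalytic subunit of the energy sensor AMPK and the member of this list with the most counts, gave -0.08 ± 0.06 (adjusted p = 0.454).

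Each mouse gave 1 library with 17791420 to 20175513 reads counted on genes, so the genotypes were sequenced to a like depth. The genotypes separated on the first principal component of the 10 libraries, which held 25.72% of the variance. Control mouse 1 and cKOt mouse 1, which came from the same one of 5 batches listed by the study, stood apart from the other 8 on the second component. Each batch held 1 mouse of each genotype. Without these 2 mice 1525 genes were called instead of 1884, and 12 of the named genes lost their call. Reads outside annotated genes made up 7.35% to 8.79% in controls and 8.53% to 9.32% in cKOt mice, and the 10 genes with the most counts took 14.6% to 16.7% against 12.6% to 14.4%. The part of these shares in the results was not tested. Of the 145 called genes that were chosen for naming, 130 differed in the same direction in every batch. Many of them were chosen by their calls in these same libraries, and the largest changes also for lack of overlap. The count therefore gives no separate support, and no share over all genes was computed.

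**Figure D2:**
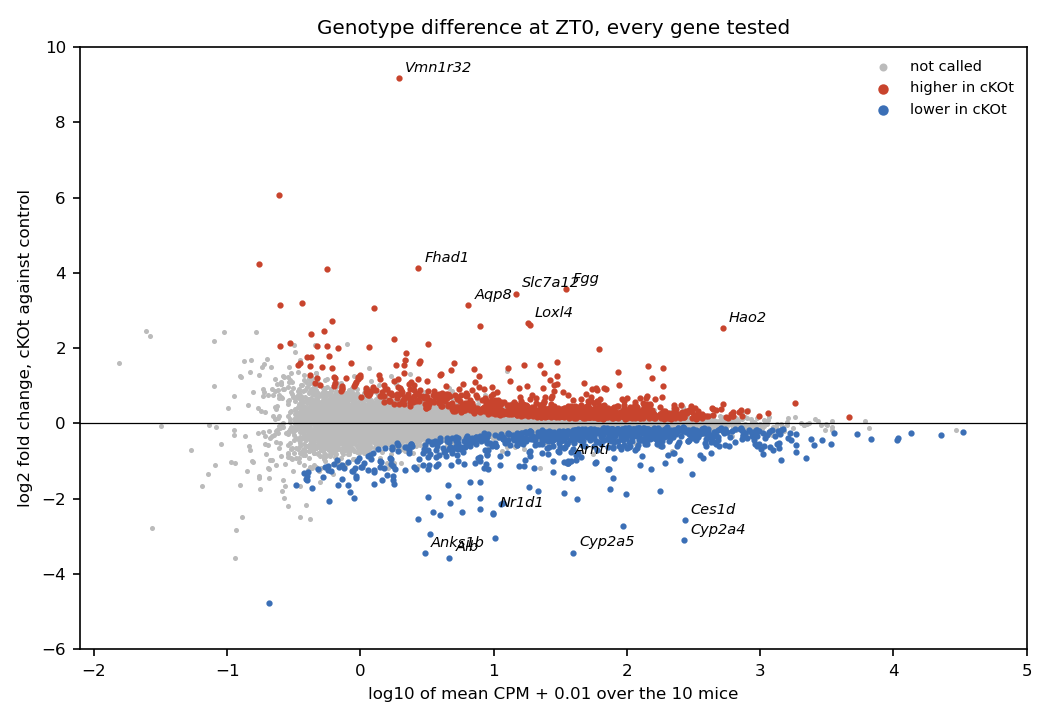
Log2 fold change of cKOt against control at ZT0 (y axis) against the mean level over the 10 mice (x axis, log10 of CPM + 0.01) for all 15546 genes tested, with the 1031 genes called higher and the 853 called lower in colour. Most called genes lie close to the line at 0, and a few reach past 3 in either direction.

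In all, 1884 genes were called, of which 1031 were higher and 853 lower in cKOt mice. The differences were mostly small: the median absolute log2 difference of the called genes was 0.34, and 93 were more than 2-fold higher and 117 more than 2-fold lower. Values of the mice did not overlap between genotypes for 1135 genes, 7.3% of those tested, and 940 of these were called. The median log2 difference over all genes was 0.02. These are pieces of whole kidney, so fewer cells of a type and less RNA per cell cannot be told apart.

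The largest increase was in Vmn1r32, a gene annotated as a vomeronasal receptor at chr6:66552180-66560096 on the minus strand. No read was counted in any of the 5 control mice, and 61 to 93 reads were counted in each cKOt mouse, at least 23.9-fold higher when each control library is set to a floor of 3 counts. Over the series 26 of 30 control mice had no read and the other 4 had at most 2, whereas all 30 cKOt mice had 61 or more. Fhad1, encoding a protein with a forkhead-associated domain, was at 0.323, 0.311, 0.394, 0.276 and 0.116 CPM in the control mice and at 4.02, 4.97, 5.63, 6.21 and 4.804 CPM in the cKOt mice (4.13 ± 0.32, adjusted p = 9.05e-15). Both genes were close to silent in controls and low in cKOt mice.

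The fibrinogen genes rose together. Fgg, the γ chain, was at 6.25, 5.85, 4.89, 5.86 and 4.87 CPM in the control mice and at 62.8, 79.3, 74.5, 64.4 and 43.6 CPM in the cKOt mice (3.57 ± 0.24, adjusted p = 1.00e-17). Fga, the α chain, went from 24.9 ± 6.97 to 97.6 ± 15.4 CPM (1.98 ± 0.23, adjusted p = 4.99e-09) and Fgb, the β chain, from 1.19 ± 0.689 to 5.21 ± 1.31 CPM (2.12 ± 0.28, adjusted p = 1.02e-07). These genes are neighbours on chromosome 3, with gaps of 11.0 kb between Fgg and Fga and 6.5 kb between Fga and Fgb. Of the list of complement, fibrinogen and acute phase genes, 4 of 19 rose, the fourth being the copper carrier Cp (50.3 to 71.4 CPM, 0.53 ± 0.13, adjusted p = 0.00235), and 2 fell. The 2 were the complement genes C4a (5.85 to 1.16 CPM, -2.36 ± 0.38, adjusted p = 6.00e-06) and C4b (7.27 to 3.59 CPM, -1.002 ± 0.35, adjusted p = 0.0497). They are near-identical copies, and reads that aligned to both were not counted, so the size for each is uncertain. The call of C4b was lost without control mouse 1, 3, 4 or 5 or cKOt mouse 1, 2, 3, 4 or 5 (-1.11 to -0.89). Plau, the protease urokinase, had the most counts of this list and gave 0.05 ± 0.13 (adjusted p = 0.856).

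The other large increases were in genes of varied function. Hao2, a peroxisomal hydroxyacid oxidase, was at 197, 139, 106, 171 and 161 CPM in the control mice and at 849.7, 826, 918, 901 and 983 CPM in the cKOt mice (2.53 ± 0.14, adjusted p = 6.07e-21). Slc7a12, an amino acid transporter whose kidney level is known to be higher in females, was at 5.33, 1.66, 0.8996, 3.26 and 1.22 CPM in the control mice and at 27.3, 30.7, 26.6, 30.6 and 18.5 CPM in the cKOt mice (3.44 ± 0.37, adjusted p = 3.42e-10). In both genes the lowest cKOt mouse was several times above the highest control. Arg2, the mitochondrial arginase, went from 5.34 ± 0.956 to 32.3 ± 4.95 CPM (2.62 ± 0.15, adjusted p = 1.61e-20), and Bhmt, which passes a methyl group from betaine to homocysteine, from 2.30 ± 0.597 to 13.6 ± 4.31 CPM (2.57 ± 0.26, adjusted p = 6.47e-11). Aqp8, a water channel, rose from 1.28 ± 0.565 to 11.7 ± 2.95 CPM (3.13 ± 0.26, adjusted p = 1.26e-13), and Loxl4, an oxidase that cross-links collagen, from 4.97 ± 1.15 to 31.4 ± 2.31 CPM (2.66 ± 0.15, adjusted p = 9.98e-21).

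The largest decreases held several enzymes of detoxification. Cyp2a4, a cytochrome P450 that hydroxylates steroids, was at 623, 507, 507, 428 and 358 CPM in the control mice and at 58.4, 42.9, 49.1, 72.4 and 58.0 CPM in the cKOt mice (-3.11 ± 0.18, adjusted p = 3.18e-20). Cyp2a5, its near-identical neighbour, was at 131, 64.2, 73.4, 65.0 and 25.2 CPM and 6.84, 5.88, 4.77, 9.70 and 5.83 CPM (-3.43 ± 0.29, adjusted p = 1.72e-13). The pair lies 520.2 kb apart on chromosome 7. Reads that aligned to both were not counted, so the size for each alone is uncertain. Cyp4a12a, a P450 that makes hydroxylated arachidonic acid and is higher in males, was at 87.1, 142, 322, 114 and 143 CPM in the control mice and at 36.5, 20.2, 33.4, 16.3 and 18.5 CPM in the cKOt mice (-2.73 ± 0.39, adjusted p = 5.54e-07). Control mouse 3 was far above the other controls, and the groups still did not overlap. Any reads that aligned both to Cyp4a12a and to Cyp4a12b were not counted, so the size for Cyp4a12a alone is uncertain. The carboxylesterases Ces1d and Ces1g, which hydrolyse esters and are close paralogs on chromosome 8, went from 464 ± 27.1 to 78.0 ± 19.5 CPM (-2.57 ± 0.19, adjusted p = 1.79e-15) and from 6.67 ± 5.39 to 1.23 ± 0.449 CPM (-2.44 ± 0.49, adjusted p = 2.94e-04).

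Beside Nr1d1, described above, the 10 largest decreases also held Alb, Hrg, Angptl7 and Anks1b. Alb, encoding serum albumin, was at 10.3, 7.87, 5.68, 9.23 and 9.68 CPM in the control mice and at 0.706, 0.535, 0.697, 0.825 and 0.756 CPM in the cKOt mice (-3.57 ± 0.31, adjusted p = 6.08e-13). Hrg, a plasma glycoprotein, went from 5.92 ± 2.94 to 0.770 ± 0.191 CPM (-2.95 ± 0.27, adjusted p = 1.28e-12), and Angptl7, a secreted angiopoietin-like protein, from 9.60 ± 4.05 to 1.91 ± 0.478 CPM (-2.36 ± 0.31, adjusted p = 6.89e-08). Anks1b, encoding a scaffold with ankyrin repeats, was at 5.54 ± 1.44 CPM in controls and 0.517 ± 0.234 CPM in cKOt mice (-3.44 ± 0.28, adjusted p = 3.04e-14). Alb and Hrg belong to the set of proteins best known from liver, while the fibrinogen genes, also best known there, moved the other way. Of the marker list for adrenal and liver, 4 of 6 genes were tested and Alb alone was called, with summed levels of 103.7 to 216.7 CPM in controls and 165.6 to 222.5 CPM in cKOt mice, and Cyp11a1 and Cyp11b1 did not reach the count minimum.

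**Figure D3:**
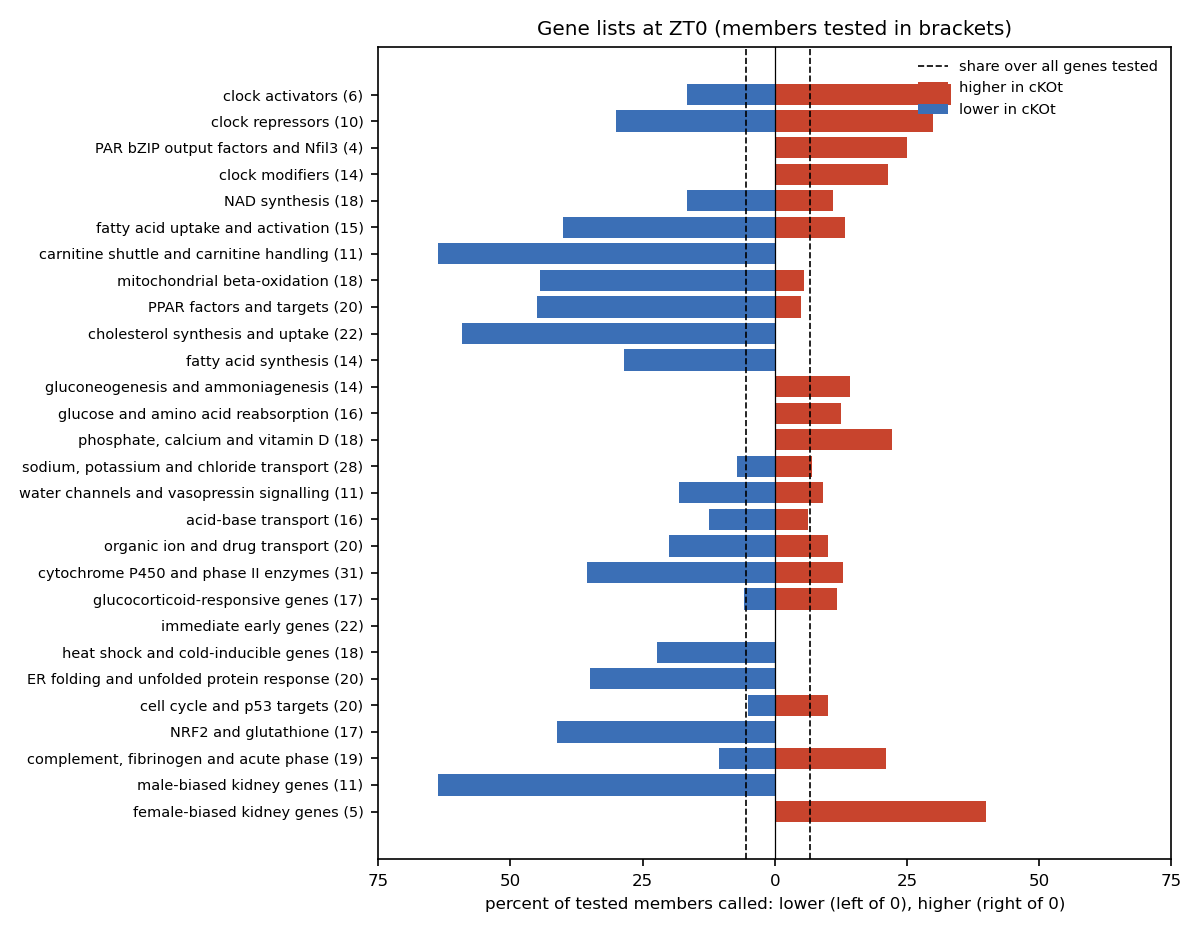
Share of the tested members of each gene list called lower (left of 0) or higher (right of 0) in cKOt mice at ZT0, in percent, with the number tested in brackets. Dashed lines mark the shares over all genes, 5.49% lower and 6.63% higher, and the lists of carnitine handling, cholesterol synthesis, PPAR targets and beta-oxidation reach furthest to the left beside that of male-biased genes.

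More genes of fatty acid uptake and oxidation fell than rose, and many were not called. Of the list of carnitine shuttle and carnitine handling, 7 of 11 tested genes fell and none rose (median log2 difference -0.30, against 0.02 over all genes). Slc22a5, the sodium-coupled carnitine transporter OCTN2, was at 242, 260.1, 254, 242 and 310.0 CPM in the control mice and at 138, 158, 150.1, 139.9 and 144 CPM in the cKOt mice (-0.84 ± 0.099, adjusted p = 5.44e-09). Aldh9a1, a dehydrogenase of carnitine synthesis, was at 617, 632, 559, 546 and 608 CPM in the control mice and at 413, 342, 399, 366 and 419 CPM in the cKOt mice (-0.62 ± 0.05, adjusted p = 1.03e-13). Neither gene overlapped between the groups. Slc25a20, which carries acylcarnitine across the inner mitochondrial membrane, went from 58.8 ± 5.59 to 31.6 ± 1.44 CPM (-0.89 ± 0.11, adjusted p = 2.69e-08). The carnitine palmitoyltransferases on either side of that carrier, Cpt1a and Cpt2, were lower by log2 differences of -0.34 ± 0.07 and -0.54 ± 0.09 (adjusted p = 2.97e-04 and 1.75e-05). Crot, the peroxisomal acyltransferase, went from 985 ± 89.0 to 793 ± 55.9 CPM, with overlapping groups (-0.30 ± 0.07, adjusted p = 9.62e-04). Cpt1a, Cpt2 and the other genes that the naming rule in the methods did not pick were named after their values were seen.

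Fatty acid uptake and activation showed 6 of 15 genes lower and 2 higher (median -0.12). Slc27a2, which takes up and activates long-chain fatty acids, was at 3890.0, 4092, 4268, 3677 and 4262 CPM in the control mice and at 3159.7, 2627, 3055, 2657 and 2458 CPM in the cKOt mice (-0.54 ± 0.06, adjusted p = 3.56e-10). Cd36, the fatty acid receptor and transporter, went from 1090.1 ± 166 to 744 ± 104 CPM (-0.56 ± 0.09, adjusted p = 4.74e-06) and Acsl3, an acyl-CoA synthetase, from 50.6 ± 4.66 to 25.4 ± 4.66 CPM (-0.99 ± 0.13, adjusted p = 4.18e-08). Acsm2, a medium-chain synthetase and the member with the most counts, was not called (-0.14 ± 0.06, adjusted p = 0.0925). The 2 genes that rose were the synthetases Acsm1 (213 to 301 CPM, 0.49 ± 0.09, adjusted p = 2.43e-05) and Acsl5 (106 to 118 CPM, 0.16 ± 0.06, adjusted p = 0.0402), the latter with its call lost without control mouse 1, 2, 3, 4 or 5 or cKOt mouse 1, 3 or 5 (0.14 to 0.17).

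In mitochondrial beta-oxidation 8 of 18 genes fell and 1 rose (median -0.14). Acadl, the long-chain acyl-CoA dehydrogenase, was at 407, 461, 465, 437 and 507 CPM in the control mice and at 271, 245, 281, 228 and 244 CPM in the cKOt mice, the largest fall of this list (-0.84 ± 0.06, adjusted p = 1.82e-15). Decr1, which prepares unsaturated fatty acids for the pathway, went from 354 ± 40.5 to 271 ± 29.3 CPM (-0.38 ± 0.07, adjusted p = 1.62e-04), and Etfa, an electron carrier, from 421 ± 30.4 to 369 ± 16.5 CPM (-0.19 ± 0.04, adjusted p = 4.65e-04). Acadm, the medium-chain dehydrogenase, had the most counts and gave -0.12 ± 0.08 (adjusted p = 0.401). Echs1, a hydratase of the same spiral, was the gene that rose (0.17 ± 0.05, adjusted p = 0.0134), and its call was lost without cKOt mouse 3 (0.14).

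Among the PPAR nuclear receptors and their known targets 9 of 20 genes fell and 1 rose, with a median of -0.47. The gene that rose was Ppard, encoding the receptor PPARδ, at 73.4, 47.0, 45.4, 52.3 and 20.5 CPM in the control mice and 152, 128, 103, 119.7 and 119 CPM in the cKOt mice (1.36 ± 0.19, adjusted p = 2.30e-07). Angptl4, a secreted inhibitor of lipoprotein lipase, was at 22.5, 25.3, 24.6, 31.9 and 35.6 CPM in the control mice and at 6.19, 11.2, 9.59, 13.0 and 3.40 CPM in the cKOt mice (-1.69 ± 0.40, adjusted p = 0.00203). Both genes separated the groups completely, in opposite directions. Acot1, an acyl-CoA thioesterase, went from 49.5 ± 5.32 to 18.1 ± 3.74 CPM (-1.44 ± 0.20, adjusted p = 3.88e-07). The peroxisomal enzyme Ehhadh gave -0.68 ± 0.14 (adjusted p = 2.53e-04), and Plin2, which coats lipid droplets, gave -0.42 ± 0.09 (adjusted p = 9.60e-04). Pdk4, a kinase that holds back glucose oxidation, gave -1.03 ± 0.31 (adjusted p = 0.0189), a call lost without control mouse 5 or cKOt mouse 3 (-0.95 to -0.88).

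Genes of cholesterol synthesis and uptake were lower as well, 13 of 22 with none higher (median -0.29). Insig1, which holds the sterol sensor in the endoplasmic reticulum, was at 91.3, 97.9, 94.7, 128 and 104 CPM in the control mice and at 50.5, 32.8, 34.7, 34.0 and 70.2 CPM in the cKOt mice (-1.21 ± 0.16, adjusted p = 1.72e-07), and Dhcr7, which makes cholesterol in the last step, went from 31.4 ± 2.27 to 20.3 ± 3.30 CPM (-0.63 ± 0.08, adjusted p = 3.85e-08). Sqle, the squalene epoxidase, gave -0.65 ± 0.11 (adjusted p = 3.35e-05). Hmgcs1, an early enzyme and the member with the most counts, went from 924 ± 76.9 to 792 ± 66.9 CPM (-0.23 ± 0.07, adjusted p = 0.0301), with its call lost without control mouse 2 or 5 or cKOt mouse 1, 2 or 4 (-0.22 to -0.18). In fatty acid synthesis 4 of 14 genes fell and none rose (median -0.12): the regulator Srebf1 (40.7 to 26.4 CPM, -0.65 ± 0.13, adjusted p = 2.37e-04), the malic enzyme Me1 (824 to 653 CPM, -0.33 ± 0.04, adjusted p = 2.62e-08) and the desaturases Fads1 (-0.48 ± 0.101, adjusted p = 4.65e-04) and Scd2 (-0.39 ± 0.09, adjusted p = 0.00204).

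NAD synthesis showed no single direction, with 2 of 18 genes higher and 3 lower (median -0.03). Nampt, the enzyme that salvages nicotinamide, was at 199, 218, 212, 210.4 and 220.2 CPM in the control mice and at 156, 149, 150.2, 152 and 153 CPM in the cKOt mice, with no overlap (-0.47 ± 0.06, adjusted p = 5.44e-09). Nadk, which phosphorylates NAD, fell from 239 ± 15.1 to 211 ± 9.66 CPM (-0.19 ± 0.04, adjusted p = 0.00105), whereas Kmo, of the route from tryptophan, rose from 172 ± 9.52 to 217 ± 17.3 CPM (0.34 ± 0.06, adjusted p = 1.07e-05). Smaller differences in Nmnat1, which makes NAD from its nucleotide precursor (-0.22 ± 0.07, adjusted p = 0.0249), and in Qprt, of the tryptophan route (0.18 ± 0.06, adjusted p = 0.0282), did not hold when single mice were left out. The call of Nmnat1 was lost without control mouse 2 or cKOt mouse 1, 2 or 4 (-0.22 to -0.19), and that of Qprt without control mouse 1, 3 or 4 or cKOt mouse 1, 2, 4 or 5 (0.16 to 0.17). Nt5e, an ectonucleotidase with the most counts of this list, gave 0.16 ± 0.13 (adjusted p = 0.470).

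Of the cytochrome P450 and phase II enzymes 11 of 31 fell and 4 rose (median -0.24). Beside the Cyp2a pair, Gsta3, a glutathione transferase, was at 123, 124, 109, 129 and 94.3 CPM in the control mice and at 41.0, 30.6, 42.4, 31.7 and 27.1 CPM in the cKOt mice (-1.74 ± 0.12, adjusted p = 6.23e-17), and Cyp4b1 went from 2897 ± 509 to 1543 ± 248 CPM (-0.92 ± 0.11, adjusted p = 3.57e-09). The 4 that rose were the xenobiotic receptor Nr1i2 (4.12 to 6.64 CPM, 0.69 ± 0.16, adjusted p = 0.00144), Cyp2d26 (76.2 to 123 CPM, 0.68 ± 0.104, adjusted p = 2.16e-06), Cyp2d12 (1.01 ± 0.30, adjusted p = 0.0158) and the aldehyde oxidase Aox3 (0.79 ± 0.22, adjusted p = 0.00908). The calls of Cyp2d12 and Aox3 were lost without control mouse 3 or cKOt mouse 5 (0.85 to 0.902) and without control mouse 1 (0.66). In the transport of organic ions and drugs 4 of 20 genes fell and 2 rose. Slc22a8, the organic anion transporter OAT3, was at 374, 291, 326, 311 and 363 CPM in the control mice and at 179.9, 170.1, 179.8, 197 and 126 CPM in the cKOt mice (-0.97 ± 0.15, adjusted p = 2.79e-06), and Slco1a6, of the organic anion transporting polypeptides, went from 376 ± 44.4 to 279 ± 27.7 CPM (-0.44 ± 0.06, adjusted p = 4.27e-07).

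The drug pumps of that list were split. Abcb1a and Abcb1b, close paralogs that both encode P-glycoprotein, gave -0.91 ± 0.20 (adjusted p = 8.41e-04) and 0.75 ± 0.21 (adjusted p = 0.0114). Any reads that aligned to both were not counted. Abcc3, a pump for conjugates, rose (0.75 ± 0.18, adjusted p = 0.00252) and Abcc2, another, fell (-0.24 ± 0.08, adjusted p = 0.0261). The call of Abcb1b was lost without cKOt mouse 4 (0.63) and that of Abcc2 without control mouse 3 or 5 or cKOt mouse 4 or 5 (-0.24 to -0.19). Slc22a12, the urate transporter URAT1 and the member of the transport list with the most counts, gave -0.11 ± 0.08 (adjusted p = 0.397).

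Antioxidant genes of the NRF2 and glutathione list were lower in 7 of 17, with none higher (median -0.12). Hmox1, which breaks down haem, was at 58.3, 42.0, 50.9, 52.4 and 42.7 CPM in the control mice and at 26.2, 20.2, 26.0, 23.7 and 21.9 CPM in the cKOt mice (-1.07 ± 0.18, adjusted p = 1.74e-05). Cat, encoding catalase, went from 1170.2 ± 76.8 to 804 ± 69.5 CPM (-0.55 ± 0.06, adjusted p = 2.50e-10) and Sod1, a superoxide dismutase, from 451 ± 42.2 to 341 ± 21.6 CPM (-0.41 ± 0.05, adjusted p = 5.86e-08). Gpx3, the plasma glutathione peroxidase made by the proximal tubule, gave -0.25 ± 0.07 (adjusted p = 0.0101), a call lost without control mouse 1 (-0.19).

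Chaperone genes were also lower where they were called. Of the heat shock and cold-inducible genes 4 of 18 fell and none rose (median -0.22), and of the genes for folding in the endoplasmic reticulum 7 of 20 fell and none rose (median -0.24). Hsp90ab1, a cytosolic chaperone, went from 1229.9 ± 124 to 948 ± 103 CPM (-0.38 ± 0.08, adjusted p = 7.59e-04), and Hspd1, the mitochondrial one, from 798 ± 59.1 to 685 ± 43.7 CPM (-0.22 ± 0.05, adjusted p = 0.00108). Hsp90aa1 and Hsph1 gave -0.50 ± 0.12 and -0.54 ± 0.17 (adjusted p = 0.00257 and 0.0260), and the call of Hsph1 was lost without control mouse 3 or 4 or cKOt mouse 2, 4 or 5 (-0.53 to -0.48). Dnajb9, a co-chaperone of the endoplasmic reticulum, went from 68.1 ± 8.79 to 48.6 ± 9.65 CPM (-0.48 ± 0.08, adjusted p = 1.44e-05). Herpud1, which helps to clear misfolded proteins, and Canx, a lectin chaperone, gave -0.37 ± 0.09 and -0.20 ± 0.05 (adjusted p = 0.00208 and 0.00272). The chaperones with the most counts in these lists, Hspa8 and Hspa5, were not called (-0.32 ± 0.14 and -0.37 ± 0.14, adjusted p = 0.114 and 0.0840). None of the 22 tested genes of the immediate early list, which does not hold Arc (described below), was called, and Egr1 gave 0.34 ± 0.35 (adjusted p = 0.586).

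Lists for reabsorption and transport along the tubule were read next. Called shares were 12.5% for glucose and amino acid reabsorption and 14.29% for gluconeogenesis and ammoniagenesis. Sodium, potassium and chloride transport gave 14.29% and acid-base transport 18.75%, against 12.1% over all genes tested. Phosphate, calcium and vitamin D handling gave 22.22% and water channels 27.27%. Counts in the lists near 12.1% are not read as results about those lists. In phosphate, calcium and vitamin D handling 4 of 18 genes rose and none fell (median 0.08). Slc20a2, a phosphate transporter, was at 50.0 ± 5.38 CPM in controls and 64.5 ± 6.07 CPM in cKOt mice (0.36 ± 0.07, adjusted p = 2.94e-04), Slc34a3, a sodium-phosphate cotransporter, went from 49.2 ± 3.19 to 65.8 ± 3.40 CPM (0.40 ± 0.08, adjusted p = 4.12e-04), and Trpv5, the calcium channel of the distal tubule, from 20.0 ± 1.09 to 26.9 ± 3.68 CPM (0.43 ± 0.11, adjusted p = 0.00479). Slc34a1, the main sodium-phosphate cotransporter of the proximal tubule, gave 0.18 ± 0.06 (adjusted p = 0.0491), and its call was lost without control mouse 1, 2, 3 or 4 or cKOt mouse 1, 3, 4 or 5 (0.15 to 0.19). In glucose and amino acid reabsorption 2 of 16 genes rose: the amino acid transporter Slc6a18 (703 to 883 CPM, 0.33 ± 0.09, adjusted p = 0.00562) and the glucose transporter SGLT2, encoded by Slc5a2 (375 to 433 CPM, 0.18 ± 0.06, adjusted p = 0.0297). The call of Slc5a2 was lost without control mouse 2, 3 or 4 or cKOt mouse 1, 4 or 5 (0.15 to 0.18). In gluconeogenesis and ammoniagenesis 2 of 14 genes rose, among them Glud1, which releases ammonia from glutamate (0.35 ± 0.08, adjusted p = 0.00251), and Pck1, of gluconeogenesis, gave -0.06 ± 0.18 (adjusted p = 0.889).

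Of 28 genes of sodium, potassium and chloride transport 2 rose and 2 fell, a called share near that over all genes tested. Scnn1b, a subunit of the epithelial sodium channel, went from 37.1 ± 2.82 to 48.2 ± 3.91 CPM (0.37 ± 0.07, adjusted p = 1.93e-04). Tsc22d3, the glucocorticoid-induced leucine zipper, was at 53.7, 51.8, 41.2, 44.9 and 52.8 CPM in the control mice and at 89.1, 78.1, 71.7, 74.4 and 73.6 CPM in the cKOt mice (0.66 ± 0.14, adjusted p = 4.23e-04). It was 1 of 2 genes to rise among 17 glucocorticoid-responsive genes, of which 1 fell, Angptl4. The other was Cdkn1a, the cell cycle inhibitor p21 (8.40 ± 1.45 to 18.1 ± 1.201 CPM, 1.11 ± 0.21, adjusted p = 1.19e-04). Cul3, a ubiquitin ligase scaffold, and Kcnj16, a potassium channel, fell by small amounts (-0.15 ± 0.04 and -0.16 ± 0.06, adjusted p = 0.00812 and 0.0388), and the call of Kcnj16 was lost without control mouse 1, 2 or 5 or cKOt mouse 2, 4 or 5 (-0.17 to -0.12). That of Cul3 was lost under 5 of 24 alternatives. Among 20 cell cycle genes Cdkn1a and the helicase subunit Mcm2 rose (0.35 ± 0.09 for Mcm2, adjusted p = 0.00448) and cyclin D1, encoded by Ccnd1, fell from 144 ± 30.8 to 88.3 ± 5.27 CPM (-0.71 ± 0.103, adjusted p = 8.15e-07). The shares called, 15.0% of that list and 17.65% of the glucocorticoid-responsive one, stand beside 12.1% over all genes tested.

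The water channels showed 2 falls and 1 rise among 11 genes of that list. Aqp4, a basolateral water channel, was at 39.2, 53.8, 49.3, 50.5 and 50.0 CPM in the control mice and at 14.2, 35.1, 29.1, 21.5 and 16.8 CPM in the cKOt mice (-1.04 ± 0.19, adjusted p = 8.89e-05), and Aqp6, a channel of intercalated cells, went from 33.9 ± 4.00 to 22.3 ± 2.20 CPM (-0.60 ± 0.099, adjusted p = 9.49e-06). Adcy6, the adenylyl cyclase that serves vasopressin, rose (0.18 ± 0.06, adjusted p = 0.0216), a call lost without control mouse 2 or 3 or cKOt mouse 1 or 4 (0.15 to 0.17), while Aqp1, the water channel with the most counts, gave -0.11 ± 0.06 (adjusted p = 0.239). In acid-base transport 2 of 16 genes fell and 1 rose. The anion exchanger Slc4a1 went from 42.1 ± 7.80 to 28.9 ± 4.23 CPM (-0.55 ± 0.11, adjusted p = 2.97e-04) and Slc26a7, of the same list, from 3.66 ± 0.778 to 1.88 ± 0.727 CPM (-0.95 ± 0.18, adjusted p = 9.39e-05), whereas the proton pump subunit Atp6v0a4 rose from 331 ± 28.6 to 396 ± 25.8 CPM (0.25 ± 0.06, adjusted p = 0.00294). Slc4a4, the basolateral bicarbonate transporter, gave 0.04 ± 0.06 (adjusted p = 0.699).

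Genes known to be higher in male than in female mouse kidney were lower in 7 of 11 and higher in none (median -0.58). Beside Cyp4a12a and Cyp4b1, these included Odc1, which makes putrescine (2346 ± 516 to 1391 ± 242 CPM, -0.77 ± 0.14, adjusted p = 6.95e-05), and Ugt2b38, a glucuronosyltransferase (1533 ± 276 to 955 ± 176 CPM, -0.70 ± 0.09, adjusted p = 1.65e-07). Kap, a protein under androgen control and the member with the most counts, gave -0.17 ± 0.07 (adjusted p = 0.0968). Of 5 genes known to be higher in females, 2 rose, Slc7a12 and the transporter Slc22a29 (4.64 ± 1.204 to 9.81 ± 1.10 CPM, 1.09 ± 0.20, adjusted p = 5.84e-05), and none was called lower. Log2 differences in this list ran from -0.81 to 3.44, with Rnf24 at -0.60 (adjusted p = 0.0937). Its summed level was 192.1 to 522.2 CPM in controls and 169.8 to 266.9 CPM in cKOt mice, which overlapped. All 10 mice were males by their labels.

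Marker lists of the cell types of the kidney were read beside these groups. Of 13 proximal tubule markers 5 fell and 2 rose, and their summed level was 26550 to 30350 CPM in controls and 22770 to 26300 CPM in cKOt mice, which did not overlap. The falls were in Slc27a2, the dicarboxylate transporter Slc13a3 (-0.61 ± 0.097), the amino acid transporter Slc7a13 (-0.61 ± 0.08), the inositol oxygenase Miox (-0.63 ± 0.102) and Keg1 (-0.58 ± 0.11), and the rises were in Slc34a1 and Slc5a2. Their adjusted p-values were 3.56e-10, 6.06e-06, 1.48e-07, 7.77e-06, 1.86e-04, 0.0491 and 0.0297, in the order named. The calls of the rises were lost under 21 (Slc34a1) and 16 (Slc5a2) of 24 alternatives, and those of the 5 falls under none. How far the share of this cell type in the tissue bore on the lipid and detoxification lists was not tested.

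Thick ascending limb markers summed to 6270 to 7272 CPM in controls and 5200 to 6263 CPM in cKOt mice, with Umod, uromodulin, the 1 of 7 called (-0.45 ± 0.09, adjusted p = 4.79e-04). Podocyte markers summed to 354.6 to 422.8 CPM and 313.2 to 354.6 CPM, with Podxl and Cdkn1c lower among 6, and endothelial markers to 456.7 to 477.3 CPM and 401.7 to 433.6 CPM, with Kdr and Emcn lower among 7. The differences were -0.17 ± 0.06 for Podxl, -0.46 ± 0.14 for Cdkn1c, -0.19 ± 0.06 for Kdr and -0.22 ± 0.06 for Emcn, with adjusted p = 0.0346, 0.0162, 0.0313 and 0.0118. The calls were lost without control mouse 1, 4 or 5 or cKOt mouse 2, 3 or 4 (-0.17 to -0.15) for Podxl, without control mouse 1 or cKOt mouse 4 (-0.38 to -0.35) for Cdkn1c and without control mouse 3 or 5 or cKOt mouse 2, 3, 4 or 5 (-0.19 to -0.16) for Kdr. The call of Emcn was lost under 3 of 24 alternatives. None of the markers of the distal convoluted tubule (5), the principal cell (6), fibroblasts (7), smooth muscle and renin cells (5) or macrophages (8) was called. In intercalated cells the regulator Foxi1 rose (0.57 ± 0.14, adjusted p = 0.00360) while Slc4a1 and Aqp6 fell.

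Of the immune and blood markers few were called. Macrophage markers summed to 126.6 to 135.0 CPM in controls and 97.7 to 127.5 CPM in cKOt mice, which overlapped. MHC class II markers summed to 280.8 to 318.7 CPM and 208.4 to 279.4 CPM, and those of T and NK cells to 3.26 to 5.06 CPM and 2.39 to 2.89 CPM, both lower in cKOt mice without overlap. Of the 3 blood markers tested Slc4a1, given above, was called lower, and their sum was 36.7 to 57.4 CPM in controls and 26.0 to 36.9 CPM in cKOt mice. H2-Ab1, an MHC class II chain, was the 1 of 7 called in its list (-0.39 ± 0.12, adjusted p = 0.0245), lost without control mouse 3 or cKOt mouse 1, 4 or 5 (-0.37 to -0.34), and Cd8a, of cytotoxic T cells, the 1 of 5 in its own, at 1.42 to 0.672 CPM (-1.07 ± 0.27, adjusted p = 0.00502). Of the B and plasma cell list 4 of 7 were tested, with 3 below the count minimum, and none was called. The summed level of the adipocyte list was 1.18 to 5.80 CPM in controls and 1.12 to 17.5 CPM in cKOt mice, and none of its 5 genes was called. Of 11 tubular injury markers Cp alone was called. The part of these cells in the results was not tested.

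**Figure D4:**
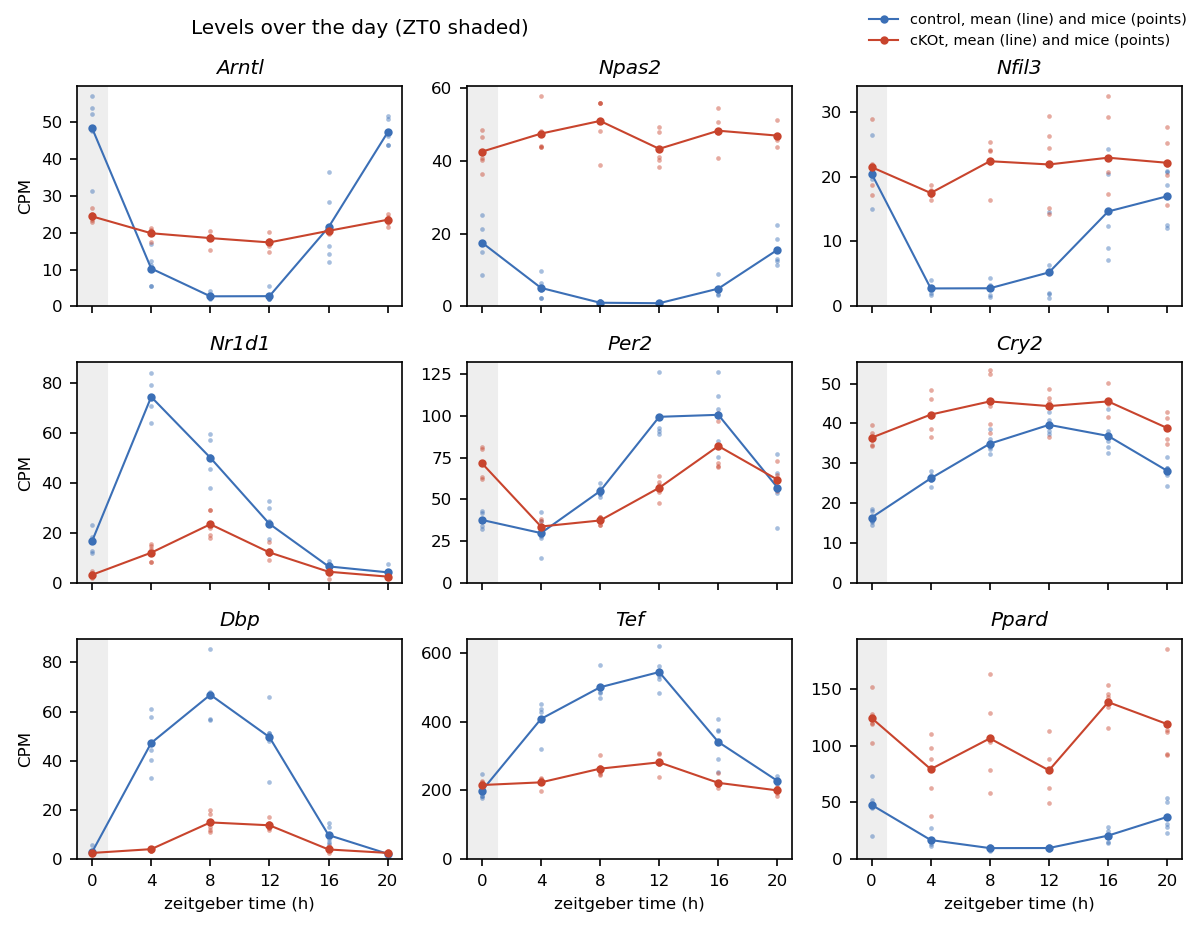
CPM of 9 genes at 6 times of day (zeitgeber time in h), with points for mice and lines for the means of 5 mice per genotype, and ZT0 shaded. Mean Arntl is below control at ZT0, ZT16 (slightly) and ZT20 and above it from ZT4 to ZT12, and the means of the genotypes lie close together at ZT0 for Dbp, Tef and Nfil3.

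The difference at ZT0 was tested against the mean difference at the other 5 times in the same fit. A departure from this mean does not set ZT0 apart from each single time, and for several genes named below the neighbouring ZT20 or ZT4 was close to it. The difference at ZT0 departed for 223 genes, 1.43% of those tested, in a more positive direction for 107 and a more negative one for 116. The difference at ZT0 was the smaller in absolute size for 170 of them and the larger for 53. Of the 223 genes 90 were also called at ZT0, and 133 were not. Of the 1884 genes called at ZT0, 1813 (96.2%) had the same sign in the mean over the other times. At those times 1950 genes were called at ZT4, 3095 at ZT8, 3271 at ZT12, 3071 at ZT16 and 2140 at ZT20.

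The difference in Arntl at ZT0 was opposite in sign to the mean over the other times, and that at ZT20 was like it, -0.96 against -0.99. In controls it went from 48.4 ± 10.2 CPM at ZT0 to 2.73 ± 0.825 CPM at ZT8 and 47.2 ± 3.78 CPM at ZT20, while in cKOt mice it stood at 24.4 ± 1.56, 18.5 ± 1.96 and 23.5 ± 1.42 CPM. Its mean log2 difference over the other times was 1.05, so the departure at ZT0 was -2.04 ± 0.22 (adjusted p = 3.51e-09). Npas2 likewise fell in controls, from 17.6 ± 6.32 CPM at ZT0 to 0.999 ± 0.382 CPM at ZT8 in controls against 42.6 ± 5.03 CPM and 51.0 ± 7.63 CPM in cKOt mice. ZT0 was thus an hour at which the Npas2 of the controls was near its daily high. The difference in Npas2 was smaller than the mean of 3.89 over the other times, with 1.63 at ZT20 (departure -2.62 ± 0.24, adjusted p = 3.37e-11). Nfil3, whose window holds the ROR element, had equal means at ZT0 within the spread of the mice and was at 2.76 ± 0.914 CPM at ZT4 in controls, where cKOt mice had 17.5 ± 0.890 CPM (departure -1.69 ± 0.32, adjusted p = 8.44e-04). At ZT20 the log2 difference in Nfil3 was 0.49.

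For the D-box activators, in contrast, ZT0 was near the daily low of the controls. Dbp went in controls from 2.81 ± 1.54 CPM at ZT0 to 66.8 ± 11.7 CPM at ZT8, and in cKOt mice from 2.499 ± 0.570 to 14.9 ± 4.08 CPM (departure 1.55 ± 0.30, adjusted p = 0.00131). Tef went in controls from 199 ± 29.0 CPM to 544 ± 50.5 CPM at ZT12, and in cKOt mice from 216 ± 11.1 to 282 ± 28.3 CPM (departure 0.82 ± 0.099, adjusted p = 1.37e-07). At ZT20 the log2 differences in Dbp and Tef were 0.14 and -0.17. Hlf, higher at ZT0, had a mean log2 difference of -0.07 at the other times (departure 0.52 ± 0.08, adjusted p = 9.15e-05). Ciart, with its 3 E-boxes, had a mean log2 difference of -2.93 at the other times, of -1.10 at ZT0 and of -1.21 at ZT20 (departure 1.84 ± 0.50, adjusted p = 0.0439).

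Per2 and Cry2 departed in the positive direction. Per2, higher at ZT0, had a mean difference below 0 over the other times, -0.27 (departure 1.18 ± 0.17, adjusted p = 1.16e-05). Cry2, higher at ZT0 as well, had a smaller positive mean, 0.41, with 0.78 at ZT4 (departure 0.73 ± 0.07, adjusted p = 5.51e-10). Nr1d1 had a mean of -1.18 over the other times (departure -1.22 ± 0.29, adjusted p = 0.0141), although its difference of -2.38 at ZT4 was close to the -2.39 at ZT0. Per3 had a mean of -1.45 (departure 0.65 ± 0.18, adjusted p = 0.0485), with -0.42 at ZT20. Cry1 and Nr1d2 gave no such call, with departures of -0.03 ± 0.11 and -0.04 ± 0.16 (adjusted p = 0.961 and 0.961).

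**Figure D5:**
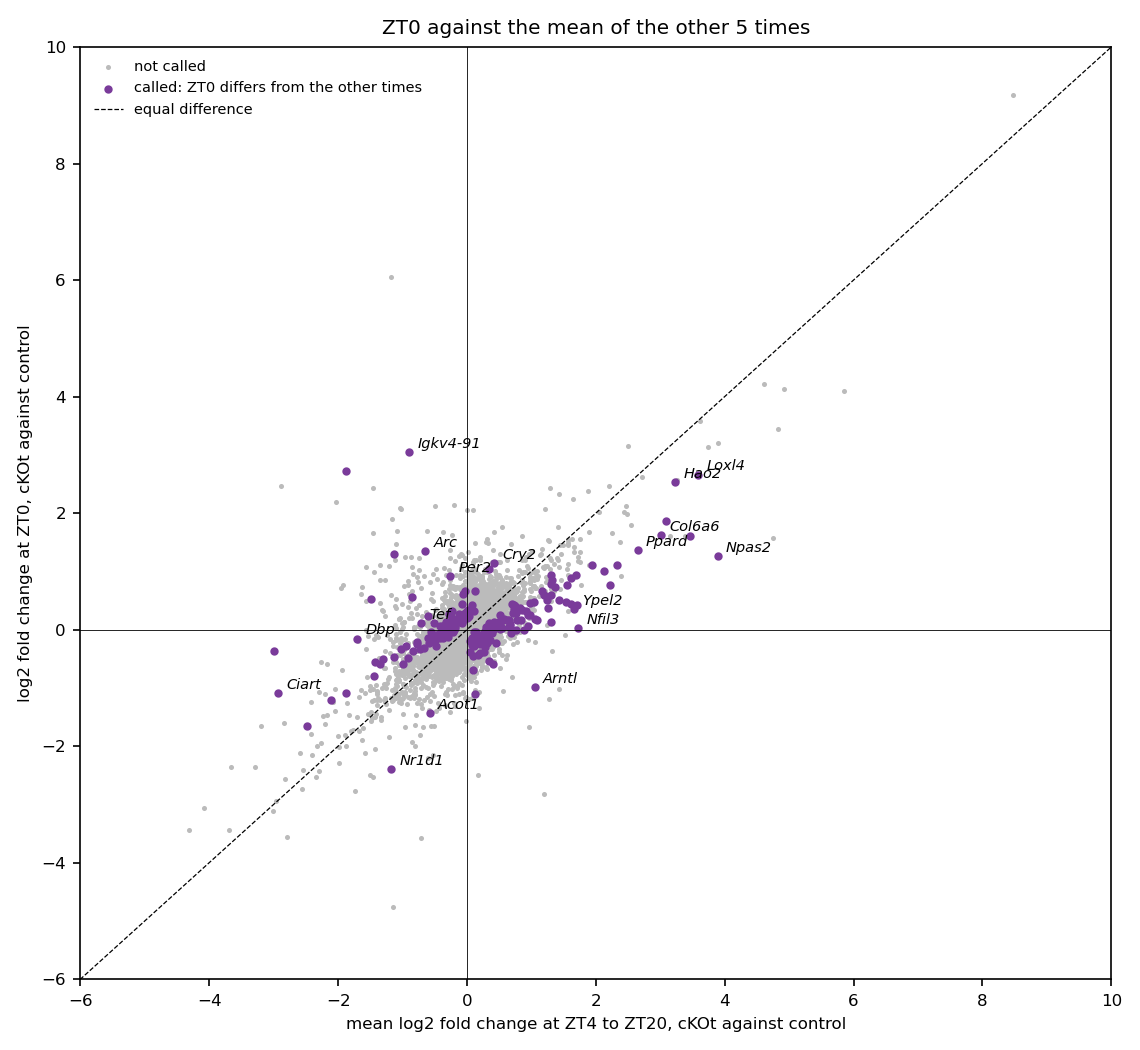
Log2 fold change at ZT0 (y axis) against its mean over ZT4 to ZT20 (x axis), cKOt against control, 1 point per gene, with the 223 genes whose ZT0 difference departed from the mean in purple and a dashed line of equal difference. Arntl lies to the right of 0 and below it, Per2 and Cry2 lie above the line, and Npas2, Nfil3 and Ypel2 lie far below it.

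Outside the clock the strongest negative departures were in Col6a6, a collagen chain, which went from 14.6 ± 10.4 to 45.05 ± 9.44 CPM at ZT0 (1.62 ± 0.26, with 3.01 elsewhere, departure -1.39 ± 0.29, adjusted p = 0.00320), and in Ypel2, of a family of small zinc-binding proteins, which did not differ beyond the threshold at ZT0 (0.34 ± 0.13, with 0.39 at ZT20 and a mean of 1.66 over the other times, departure -1.31 ± 0.14, adjusted p = 5.87e-09). Ppard, raised at ZT0, had a larger mean difference over the other times (2.65, with 1.71 at ZT20, departure -1.29 ± 0.21, adjusted p = 9.15e-05), as did Loxl4 (3.59, departure -0.93 ± 0.17, adjusted p = 5.35e-04) and Hao2 (3.23, departure -0.70 ± 0.14, adjusted p = 0.00288). Acot1 had a mean of -0.58 over the other times (departure -0.85 ± 0.22, adjusted p = 0.0299), with -1.56 at ZT20, next to -1.44 at ZT0. Tsc22d3 had 0.12 elsewhere (departure 0.54 ± 0.15, adjusted p = 0.0489), with 0.53 at ZT4.

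The strongest positive departures outside the clock were in immunoglobulin chain genes and in Arc, an immediate early gene best known from neurons. Arc stood at 0.700, 1.14, 0.506, 1.82 and 1.51 CPM in the control mice and at 0.597, 10.1, 1.23, 2.23 and 1.19 CPM in the cKOt mice, where mouse 2 was far above the rest. The log2 difference of 1.34 ± 0.34 (adjusted p = 0.00505) became 0.35 without that mouse and was no longer called. Igkv4-91, an immunoglobulin κ variable gene, stood at 0, 0.518, 0.0562, 0.110 and 0.522 CPM in the control mice and at 0.217, 1.39, 9.64, 0.0485 and 0.0540 CPM in the cKOt mice. Its difference of 3.05 ± 0.93 (adjusted p = 0.0202) rested on cKOt mouse 3, being 0.83 and not called without it, and its call was also lost without control mouse 3 or 4 (up to 2.84). Iglc1 and Igkv1-110, also immunoglobulin chain genes, were not called at ZT0 (1.30 ± 0.53 and 0.53 ± 0.46, adjusted p = 0.09999 and 0.510) but departed from the other times by 2.43 ± 0.57 and 2.02 ± 0.52 (adjusted p = 0.0137 and 0.0305). These genes belong to families of close copies, so single values are uncertain.

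The motifs shown at the start were counted over the 11416 tested genes with a RefSeq promoter. The E-box stood in 9.57% of them, in 8.83% of the genes that rose at ZT0 and in 12.1% of those that fell. It stood in 16 of 81 genes (19.8%) whose ZT0 difference was more positive than at the other times and in 9 of 86 (10.5%) whose difference was more negative. The D-box stood in 0.815% of all, in 0.126% of those that rose (1 of 793) and in 2.08% of those that fell, and the ROR element in 2.06%, 2.77% and 2.40%. Among the genes with a more positive ZT0 difference, 4 of 81 (4.94%) held the D-box and 3.7% the ROR element. Among those with a more negative one, 2 of 86 (2.33%) held the D-box and 5.81% the ROR element. These shares are descriptions of the windows, and no test was made of them.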

How the data were processed

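The authors prepared stranded TruSeq mRNA libraries and, per the labels and the submitters' processing notes, used bcl2fastq, cutadapt 1.8, STAR 2.5.3a and HTSeq 0.9.1 with build GRCm38; the strand setting of the counting is not given in the sources used here. The values analysed are the raw read counts per gene deposited by the authors for each mouse. Rows that name no gene, among them the tally of alignments that were not unique, were kept out of library sizes. Symbols came from GENCODE M21 (55154 of 55335 identifiers matched).

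The counts of all 60 mice, in 12 groups of 5, were fitted together in R 4.3.3 with edgeR 4.0.16 (TMM, quasi-likelihood F test, at least 1 CPM in at least 1 sample, 15546 genes, Benjamini-Hochberg threshold 0.05) with 2 factors of unwanted variation estimated from replicates by a rewritten RUVs. SE is the log2 difference divided by the square root of F. CPM uses TMM library sizes without those factors. The other contrast took the ZT0 difference minus the mean of the other 5. The script was tested on simulated data.

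Named genes were the clock lists, the 10 largest called increases and decreases with at least 1 CPM and no overlap, the 5 strongest departures each way, and per list the 3 called members with the smallest adjusted p and the one with the highest CPM. The members and lists were chosen with earlier results of these data known. Alternatives used limma 3.58.1, DESeq2 1.42.0, other normalizations, filters and covariates, a batch term, a replicate block and each ZT0 mouse left out. Replicate numbers do not pair the mice. Batches were read from the study's sample sheet, which does not say of what step they are. The mice set aside by the authors were not analysed here. No pair of libraries of a group was identical. Some named genes are not reported here.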

Additional observations from a re-analysis of the deposited data

Results flagged for a closer look

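Results of the named genes were picked out on either of 2 grounds. The first was a mouse far from the other 4 of its group by Dixon's test. This marked 25 of the 348 groups examined, or 7.18%, where chance gives about 1 in 20. Control mouse 5 was high for Bhlhe41 (5.27 CPM), Ciart (2.61 CPM), Dbp (5.56 CPM), Slc22a5 (310.0 CPM) and Rnf24 (384 CPM), the last a female-biased gene that was not called. Control mouse 3 was high for Hrg (11.1 CPM), Cyp4a12a (322 CPM), Ces1g (16.1 CPM), Srd5a2 (32.2 CPM) and Synpr (59.9 CPM). Control mouse 1 was high for Col6a6 (32.9 CPM), Aqp1 (1008 CPM) and Cdkn1c (8.02 CPM), control mouse 4 for Acot1 (58.8 CPM) and control mouse 2 for Cp (62.9 CPM). Among cKOt mice, mouse 3 was high for Igkv4-91 (9.64 CPM), Crot (890.3 CPM), Dnajb9 (65.2 CPM) and Herpud1 (238 CPM) and low for Qprt (47.6 CPM). cKOt mouse 5 was high for Anks1b (0.918 CPM) and Srd5a2 (4.05 CPM) and low for Cpt1a (353 CPM), cKOt mouse 1 was low for Rora (60.5 CPM) and cKOt mouse 2 was high for Arc (10.1 CPM).

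The second was a genotype difference at ZT0 that departed from the mean difference at the other 5 times, by the quasi-likelihood test of edgeR for that departure with Benjamini-Hochberg adjustment. It marked 25 of the 174 named genes, given here as the log2 departure, where the share over all genes tested was 1.43%. The 5 strongest departures each way were named because this same test called them, so the count gives no separate support. More negative at ZT0 were Arntl (-2.04), Npas2 (-2.62), Nfil3 (-1.69), Nr1d1 (-1.22), Col6a6 (-1.39), Ypel2 (-1.31), Ppard (-1.29), Loxl4 (-0.93), Acot1 (-0.85), Hao2 (-0.70), Nt5e (-0.63), Cdkn1c (-0.56) and Scd2 (-0.44). More positive at ZT0 were Igkv4-91 (3.96), Iglc1 (2.43), Igkv1-110 (2.02), Arc (1.99), Ciart (1.84), Dbp (1.55), Per2 (1.18), Tef (0.82), Cry2 (0.73), Per3 (0.65), Tsc22d3 (0.54) and Hlf (0.52). For Arc and Igkv4-91 the ZT0 differences rested on 1 cKOt mouse each, as named above. Departures of single genes were not recomputed with a mouse left out or under the other alternatives.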

How the results depend on the processing

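Of 145 named genes called at ZT0, 108 kept their call under all 24 alternatives, the 10 called clock genes among them, and 37 lost it under at least 1, of which 25 when 1 ZT0 mouse was left out. Many of these genes were chosen for small adjusted p-values or large differences in these same libraries. The count of kept calls therefore gives no separate support, and no such share over all genes was computed. The calls lost most often were those of Slc34a1 (under 21), Acsl5 (under 19) and Slc5a2, Fbxl21 and C4b (under 16 of 24 each). Some calls held with each single ZT0 mouse left out but were lost under other alternatives. These were Cul3 (under 5), Etfa and Canx (4 each), Csnk1d, Abcc3 and Emcn (3 each), Nadk, Srebf1 and Hspd1 (2 each) and Mcm2, Cp and Cd8a (1 each). The count of 1884 calls (1031 higher, 853 lower) became 983 (500 and 483) without the factors of unwanted variation, 1130 (589 and 541) with batch in their place, 1122 (532 higher) with the ZT0 mice alone, 1234 (565 higher) with these and a replicate block, 1651 (809 higher) with these and a batch block, 1243 past 1.2-fold and 210 past 2-fold. The 223 departures from the other times (107 positive, 116 negative) became 80 (23 and 57) without the factors, 101 (36 and 65) with batch, 55 positive with no filter on low counts, and 106 (42 and 64) without the 2 mice that stood apart, an alternative chosen after seeing the data. Leaving out each ZT0 mouse gave 1462 to 1832 calls (771 to 1009 higher, 691 to 843 lower) and 114 to 271 departures (46 to 136 positive, 68 to 135 negative), with 114 without control mouse 1, 141 without control mouse 4, 135 without cKOt mouse 2 and 125 without cKOt mouse 4, and with 68 and 69 positive without control mouse 2 and cKOt mouse 3. The cause of these shifts was not tested.

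Mice with the same replicate number did not deviate together (correlations -0.12 to 0.23), so the numbers were not taken as pairs. Mice of the same batch did so slightly, with 0.06 to 0.23 and a mean of 0.14. Mice of other batches gave -0.165 to 0.0985, with a mean of -0.0362, and the main fit held no batch term. A replicate block gave 1884 calls and 226 departures, with 4 named calls lost. Uncalled genes changed sign in places: Pck1 gave 0.031 without the mice that stood apart, and with 1 mouse left out the ranges crossed 0 for Rora (-0.0118 to 0.107), Per1 (-0.0719 to 0.167), Bhlhe41 (-0.11 to 0.42), Dbp (-0.27 to 0.22), Nfil3 (-0.0627 to 0.170) and Pck1 (-0.126 to 0.0305). DESeq2 size factors gave 47.9% of calls as higher, against 54.7%, so the balance of rises and falls is not firm. Differences in genes of a few counts per library, such as Vmn1r32 in controls, are limited by depth.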

Other observations

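Several further genes with large differences at ZT0 were named after their values were seen. Hsd11b1, the reductase that turns inert glucocorticoids into active ones, was at 231, 319.9, 441, 214 and 184 CPM in control mice 1 to 5 and at 63.4, 67.3, 95.6, 85.7 and 84.4 CPM in cKOt mice 1 to 5, which did not overlap (-1.81 ± 0.18, adjusted p = 6.47e-11 by the quasi-likelihood test of edgeR with Benjamini-Hochberg adjustment, as below). Srd5a2, which reduces testosterone to dihydrotestosterone, was at 5.76, 9.79, 32.2, 7.57 and 8.06 CPM in the control mice and at 3.04, 3.10, 2.84, 2.86 and 4.05 CPM in the cKOt mice, with control mouse 3 far above the rest (-1.99 ± 0.32, adjusted p = 4.74e-06). The steroid enzymes thus stood lower in every cKOt mouse than in any control. The protease inhibitors Serpina1d and Serpina1a, paralogs for which reads that aligned to both were not counted, went from 154 ± 17.9 to 41.4 ± 5.36 CPM (-1.89 ± 0.19, adjusted p = 7.09e-11) and from 19.3 ± 4.02 to 4.39 ± 2.08 CPM (-2.13 ± 0.25, adjusted p = 6.04e-09).

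Car3, a carbonic anhydrase, was at 49.3, 74.6, 27.2, 79.5 and 37.3 CPM in the control mice and at 20.0, 8.18, 23.7, 9.22 and 8.74 CPM in the cKOt mice, groups that come within a few CPM of each other (-1.85 ± 0.35, adjusted p = 9.04e-05). Gda, which deaminates guanine, went from 18.4 ± 3.29 to 4.15 ± 0.756 CPM (-2.15 ± 0.20, adjusted p = 6.91e-12), and Slc23a3, of the ascorbate transporter family, rose from 8.50 ± 1.41 to 25.1 ± 2.59 CPM (1.55 ± 0.101, adjusted p = 5.64e-18). Synpr, a synaptic vesicle protein, was at 2.53, 15.0, 59.9, 3.48 and 11.7 CPM in the control mice and at 1.14, 2.83, 4.45, 0.728 and 1.13 CPM in the cKOt mice, with overlapping groups (-3.05 ± 0.73, adjusted p = 0.00243), and without control mouse 3 it gave -2.13 and was not called.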
